A study of Mus musculus with 12 samples.

Results

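Heat shock and chaperone genes were followed in the terminal ileum of 12 mice, 3 in each of 4 groups. The genes were taken by name: every gene whose symbol starts with Dnaj, Hspa, Hspb, Hspd, Hspe, Hsph or Hsp90, together with Hsf1, Hsf2, Atf4, Atf6, Xbp1, Ern1, Ern2, Ddit3, Calr, Canx, Pdia3, Pdia4 and Pdia6. Of the 23284 genes counted, 87 matched, and 84 of these had reads. The 3 without a read were Dnajb8, Dnajc5b and Dnajc5g. A filter on low counts left 80 members for testing, and Dnajb13, Hspa1l, Hspb3 and Hspb9, with 33, 30, 10 and 2 reads over all libraries, were not tested.

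Chaperones hold unfolded proteins and help them fold. HSP70 proteins bind and release short stretches of unfolded chains in cycles driven by ATP. J-domain proteins, the Dnaj genes, bring clients to HSP70 and start the cycle, and HSP110 and HSPBP1 help to reset it. HSP90 acts later, on nearly folded clients, small heat shock proteins keep unfolded ones soluble, and the HSP60 and HSP10 chaperonin, encoded by Hspd1 and Hspe1, works in mitochondria. The heat shock response switches on the cytosolic genes through HSF1, and the unfolded protein response switches on those of the endoplasmic reticulum (ER) through ATF6, through XBP1, which IRE1 activates by splicing, and through ATF4, which is made when PERK slows translation. In the gut, plasma, goblet and Paneth cells all fold large amounts of secreted protein.

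The wild type group was C57BL/6. In Rag1-/- mice antigen receptor genes are not assembled, so mature lymphocytes with such receptors do not form. In Tcra-/- mice the alpha chain of the T cell receptor is missing and conventional alpha beta T cells do not form. One Tcra-/- group had shared cages with equal numbers of age-matched male wild type mice for 4 to 8 weeks, and the other had been housed separately. The mice came from 1 supplier and were kept specific-pathogen-free; no source used here gives ages or the number of cages. Cage mates are not independent, and the p-values take no account of cages. They rest on the spread between these mice within the 4 groups, estimated with information shared across genes. The labels give no cage per mouse, so cage mates among the sequenced mice, wild type ones included, could not be identified. Mice are named below as in the labels (WTB6x for wild type, RAG1x, and TCRaCox for co-housed), apart from the separately housed ones. The separately housed mice carry ear tags of another series (T2, T3 and T4) than the other 9. Anything that differed with it cannot be told apart from housing. Where these mice are set against wild type, it cannot be told apart from genotype either.

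Poly(A) RNA of each mouse was sequenced as 1 library, with 37061276 to 50581616 counted reads. Values are CPM, read counts scaled to a common depth by the trimmed mean of M-values (TMM), unless RPKM, the same per kilobase of exon, is named. A mean level is given ± SD over the 3 mice of a group, and a log2 fold change ± SE. Rag1 itself had 75, 69 and 92 reads in the 3 Rag1-/- mice and none in the other 9. The part of the gene that the allele lacks is not given, so these reads do not check the labels. Tcra was not analysed here. Of 8 B cell markers the summed level was 2.13 to 2.79 CPM in Rag1-/-, 149 to 183 in wild type, 106 to 155 in co-housed and 46.7 to 83.7 CPM in separately housed Tcra-/- mice. With co-housing 4 of the 8 were called higher, and in separately housed mice 7 of 8 were called lower than in wild type. The sum of 9 T cell markers was 79.5 to 121 CPM in wild type, 8.30 to 12.1 in Rag1-/-, 28.9 to 64.6 in co-housed and 12.5 to 13.3 in separately housed Tcra-/- mice. Enterocyte markers of the ileum were abundant in every mouse. Their sum over 8 genes was lower in co-housed than in separately housed Tcra-/- mice and lower in Rag1-/- than in wild type mice. Within these comparisons it ran opposite to the chaperone sums given below. Over the 4 groups its mean was lowest in Rag1-/- mice, while the mean sum of all members was highest in co-housed mice. The enterocyte sum was 12440 to 14750 CPM in co-housed, 18420 to 20850 in separately housed, 11340 to 13200 in Rag1-/- and 14690 to 17970 CPM in wild type mice. With co-housing 4 of the 8 were called lower and 1 higher, and in Rag1-/- mice 3 were called lower and none higher. The part of these cell types in the chaperone results was not tested. In whole tissue, fewer cells of a type and less RNA per cell cannot be told apart. Exons of 10 members overlap those of another gene, among them Ddit3, Dnaja1, Dnajb6, Pdia4 and Pdia6. In Dnaja1 1503 of 5790 exon bases overlap Smu1 on the other strand, while the others named overlap by 14 to 68 bases. No source used here says whether strand was used in counting, so overlapped parts may share reads.

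Between genes, levels were compared per exon length, as the mean RPKM over the 12 mice. Hspa8, the constitutive cytosolic HSP70, led with 956 RPKM, ahead of 3 ER chaperones, Hspa5 (BiP, the ER HSP70) with 479, Calr (calreticulin) with 453 and Hsp90b1 (GRP94, the ER HSP90) with 413. Pdia3 followed with 283 and Hsp90ab1 with 269.6 RPKM. The factors Xbp1 and Atf4 ranked 8 and 10, with 188 and 158 RPKM. The heat-inducible pair Hspa1a and Hspa1b stood far lower, at 3.80 and 8.67 RPKM. All 84 members together took 1.01 to 1.09% of the reads in separately housed Tcra-/-, 1.08 to 1.30% in wild type, 1.21 to 1.54% in Rag1-/- and 1.50 to 1.81% in co-housed Tcra-/- mice. The share was thus higher in each co-housed than in each separately housed Tcra-/- mouse, while Rag1-/- and wild type mice overlapped. On the TMM scale the summed level did not overlap in either, at 12920 to 16610 CPM in Rag1-/- against 10290 to 12320 in wild type mice, and 15770 to 18000 CPM in co-housed against 9693 to 10250 in separately housed mice.

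The design names 2 comparisons, Rag1-/- against wild type and co-housed against separately housed Tcra-/- mice, which share no mouse. Each Tcra-/- group was also set against wild type; these comparisons share mice with each other and with the stated ones. A gene is called here where edgeR's quasi-likelihood test, adjusted by Benjamini-Hochberg over the 15866 genes tested, gives a p under 0.01.

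Chaperone genes were mostly higher in co-housed than in separately housed Tcra-/- mice: 39 of the 80 tested members were called higher and 9 lower, against 21.1% and 17.7% of all genes tested. Their median log2 fold change was 0.23, against -0.01 over all genes. In Rag1-/- against wild type mice 19 were called higher and 1 lower, against 9.42% and 11.5% of all genes, with a median of 0.20 against -0.02. Separately housed Tcra-/- mice differed less from wild type, with 5 members called higher and 5 lower (6.06% and 7.70% of all genes) and a median of -0.07. In co-housed Tcra-/- against wild type mice 22 were called higher and 2 lower (9.34% and 9.19% of all genes), with a median of 0.23. Of the calls between the housing groups 12 exceeded 2-fold, while the calls in Rag1-/- mice lay between 1.19- and 1.79-fold. In all, 53 members were called in at least 1 of the 4 comparisons. The 27 called in none were Hsf1, Hsf2, Ern1, Ddit3, Hspa4l, Hspa12b, Hspb1, Hspb2, Hspb6, Hspb11, Dnaja4, Dnajb2, Dnajb3, Dnajb5, Dnajb6, Dnajb9, Dnajc1, Dnajc4, Dnajc6, Dnajc12, Dnajc14, Dnajc17, Dnajc18, Dnajc24, Dnajc25, Dnajc27 and Dnajc30.

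The counts depended on scaling and, for some comparisons, on single mice. Scaling by library size alone moves the median of all genes to -0.19 in Rag1-/- against wild type and to -0.12 in both co-housed comparisons. The split of members was then 7 higher and 6 lower in Rag1-/-, 31 and 13 between the housing groups, and 15 and 5 in co-housed mice against wild type. Over all genes tested it was 713 and 3218, 2480 and 3695, and 795 and 2449 in the same order. The median of the members was 0.03, 0.12 and 0.1. The 19 calls in Rag1-/- mice became 12 without wild type mouse WTB6x3159, 10 without wild type mouse WTB6x3160 and 11 without Rag1-/- mouse RAG1x3168. With library size alone the Rag1-/- calls were 1 of the 13 ER lumen members, none of the 9 cytosolic heat-inducible and 2 of the 7 mitochondrial members described below. Between the housing groups they were 9, 7 and 6 of them. Over all genes tested, higher calls went from 1494 to 713 in Rag1-/- mice and from 3347 to 2480 between the housing groups. The 5 members called higher in separately housed mice than in wild type were Hspa2, Hspb7, Hspb8, Hspbap1 and Dnajc5, and 1 to 3 of these calls were left when any of the 6 mice was left out. The 5 called lower, Hspa12a, Dnajc10, Dnajc9, Xbp1 and Dnaja1, became 3 without mouse T3.

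**Figure D1:**
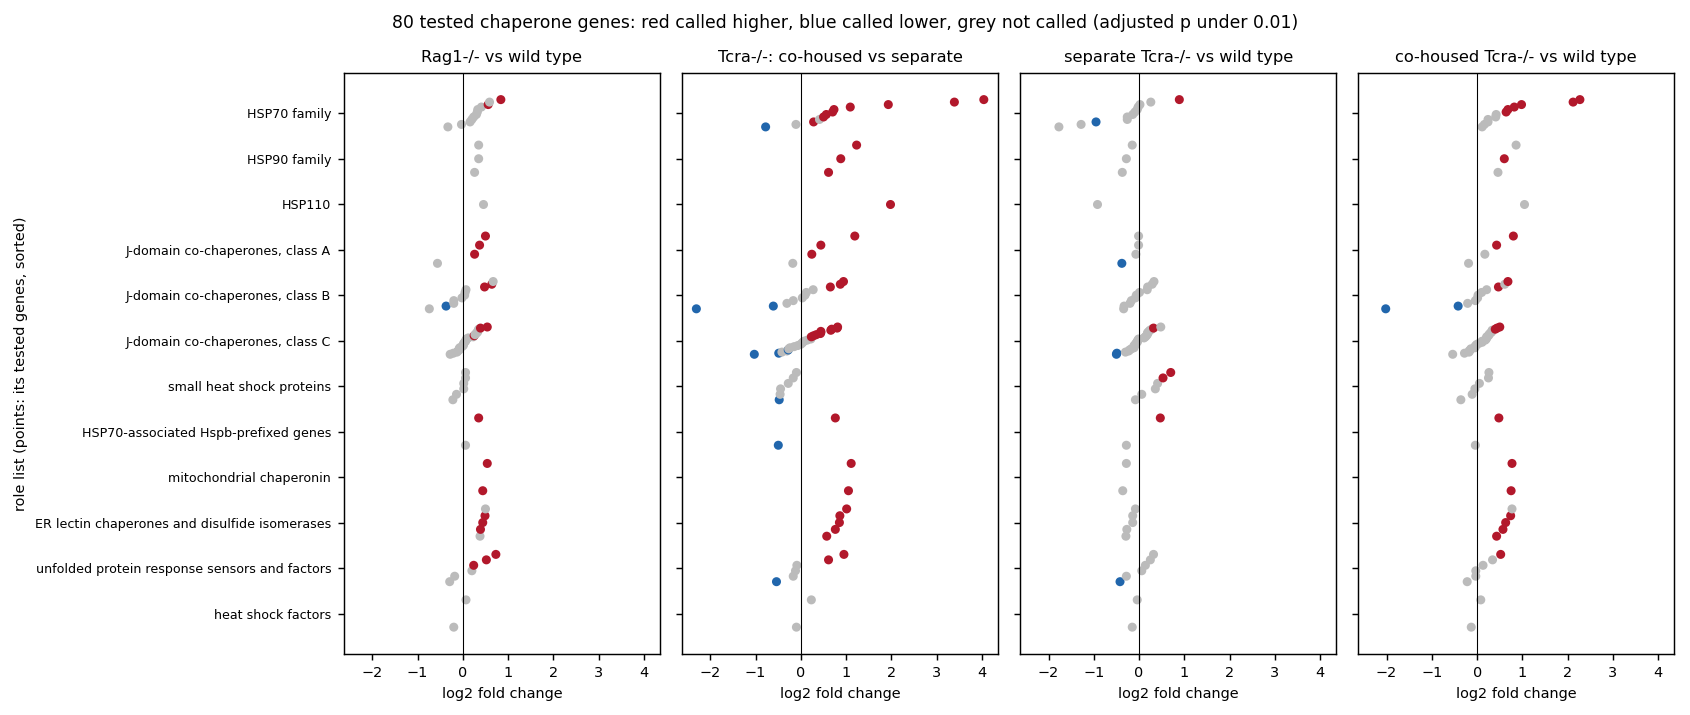
Log2 fold change (horizontal axis) of the 80 tested members, 1 point each, by role list (rows) and comparison (panels); red points were called higher, blue lower and grey not called. Between the housing groups the HSP70, HSP90, chaperonin and ER lectin rows lie mostly to the right of 0, with Hspa1a at 4.04 and Hspa1b at 3.39. The 6 tested genes listed by symbol as small heat shock proteins lie between -0.48 and -0.10.

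The set named cytosolic heat-inducible had a median log2 fold change of 1.19 between the housing groups, against 0.81 and 0.73 in the ER lumen and mitochondrial sets. Of its 9 members 8 were called higher (21.1% of all genes tested). In Rag1-/- mice Dnaja1 was the 1 of the 9 that was called (9.42% of all genes were called higher). The set was chosen by hand and includes the constitutive Hspa8 and Hsp90ab1. It leaves out Hspb8, called lower with co-housing, Dnajb4, called lower in Rag1-/- mice, and Hspa4l, called in no comparison. Hspa1a and Hspa1b, neighbours on chromosome 17 (mm9, 35106304 to 35109101 and 35093374 to 35096183), encode the stress-inducible HSP70. Hspa1a stood at 28.0, 32.5 and 23.8 CPM in the co-housed and 1.73, 1.49 and 1.88 CPM in the separately housed Tcra-/- mice. It stood at 8.53, 6.46 and 2.48 CPM in wild type and 10.1, 5.14 and 5.44 CPM in Rag1-/- mice. Every co-housed mouse lay above the 9 others, and the 3 separately housed mice lay below all the rest. The log2 fold change between the housing groups was 4.04 ± 0.44 (SE, adjusted p = 3.81e-05), a 16.5-fold difference.

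Hspa1b followed the same order, with 61.3, 71.3 and 48.6 CPM in co-housed, 22.2, 12.4 and 17.5 in Rag1-/-, 19.4, 14.2 and 8.09 in wild type and 5.03, 6.78 and 5.45 CPM in separately housed mice. It was 10.5-fold higher with co-housing (log2 3.39 ± 0.34, adjusted p = 2.78e-05). The transcripts of the pair are near-identical and how reads that fit both were counted is not given, so the split between them is uncertain. Their sum was 72.4 to 103.8 CPM in co-housed and 6.76 to 8.27 CPM in separately housed mice, 10.6 to 27.9 in wild type and 17.5 to 32.2 in Rag1-/- mice. Against wild type, both were called higher in co-housed mice (log2 2.27 and 2.12), the call of Hspa1a ending without wild type mouse WTB6x3160 (adjusted p = 0.01003). In separately housed mice the log2 values against wild type, -1.77 for Hspa1a (adjusted p = 0.0167) and -1.28 for Hspa1b (adjusted p = 0.0223), did not pass. Both passed without wild type mouse WTB6x3167, at -2.14 and -1.55. With DESeq2 on all mice both passed too, at -1.78 (adjusted p = 0.00049) and -1.28 (adjusted p = 0.00077). In Rag1-/- mice the value of Hspa1a was 0.24 (adjusted p = 0.700) and turned to -0.13 without wild type mouse WTB6x3167 and to -0.14 without Rag1-/- mouse RAG1x3163.

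Hsph1, the HSP110 that exchanges nucleotide on HSP70, stood at 204, 256 and 216 CPM in co-housed and 50.6, 63.8 and 58.4 CPM in separately housed mice, 3.91-fold apart (log2 1.97 ± 0.27, adjusted p = 0.000262). Wild type mice lay between, at 109.8, 86.7 and 132 CPM. Of the Rag1-/- mice, at 119.6, 107 and 217 CPM, mouse RAG1x3168 stood within the co-housed range and the other 2 within the wild type range. Hsp90aa1, the inducible cytosolic HSP90, was 2.34-fold higher in co-housed mice (744, 807 and 680.5 CPM against 315, 334 and 306 CPM, adjusted p = 0.000788). In Rag1-/- mice it stood at 478, 387 and 711 CPM, again highest in mouse RAG1x3168, against 420.1, 315 and 499 CPM in wild type (log2 0.35, adjusted p = 0.248).

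Dnaja1, a J-domain partner of cytosolic HSP70, was the member of this set called in all 4 comparisons. Part of its exon length overlaps Smu1, as given above, so some of its reads may be shared. It stood at 527, 606 and 507 CPM in co-housed, 372, 371 and 472 in Rag1-/-, 334, 296 and 309 in wild type and 237, 245 and 238 CPM in separately housed mice, 4 ranges that did not overlap. Its log2 fold change was 1.19 ± 0.10 between the housing groups, 0.80 ± 0.09 in co-housed mice against wild type, 0.37 ± 0.09 in Rag1-/- and -0.38 ± 0.09 in separately housed mice. The Rag1-/- call ended without wild type mouse WTB6x3160 or WTB6x3167 or Rag1-/- mouse RAG1x3168 (adjusted p 0.0222 to 0.0439), and the call in separately housed mice without any of the 6 mice (adjusted p 0.0116 to 0.0395).

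Dnajb1, the main J-domain partner of HSP70 under heat shock, stood at 98.0 ± 6.76 CPM (SD, n = 3) in co-housed and 50.95 ± 1.54 CPM in separately housed mice (log2 0.94 ± 0.16, adjusted p = 0.000281). Rag1-/- and wild type mice had 66.3 ± 13.9 and 64.4 ± 12.7 CPM. Hspa8 rose from 1634 ± 144 to 2658 ± 344 CPM with co-housing (log2 0.70 ± 0.16, adjusted p = 0.0027), a call that ended without co-housed mouse TCRaCox3156 or separately housed mouse T2 or T4 (adjusted p 0.0117 to 0.0174). Hsp90ab1, the constitutive cytosolic HSP90, rose from 545 ± 85.8 to 831 ± 62.8 CPM (log2 0.61 ± 0.14, adjusted p = 0.00181, 0.0102 without co-housed mouse TCRaCox3157). The exception was Hspb1, with 13.4 ± 1.74 against 14.4 ± 2.18 CPM (adjusted p = 0.58). The summed level of 8 crypt proliferation markers was also higher with co-housing, and all 8 were called higher there. It was 807 to 928 CPM in co-housed, 703 to 766 in Rag1-/-, 513 to 673 in wild type and 349.8 to 503 CPM in separately housed mice. Rag1-/- and wild type mice did not overlap in that sum, nor in the sums of the ER lumen and mitochondrial sets. They overlapped in the sum of the cytosolic set, at 3236 to 5037 and 2896 to 3616 CPM. The part of proliferation in the result was not tested. The sum of 15 immediate early genes, a list added after the member values were seen, was 760.4 to 912 CPM in co-housed and 849.8 to 999 CPM in separately housed mice, with 2 called higher and 2 lower.

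**Figure D2:**
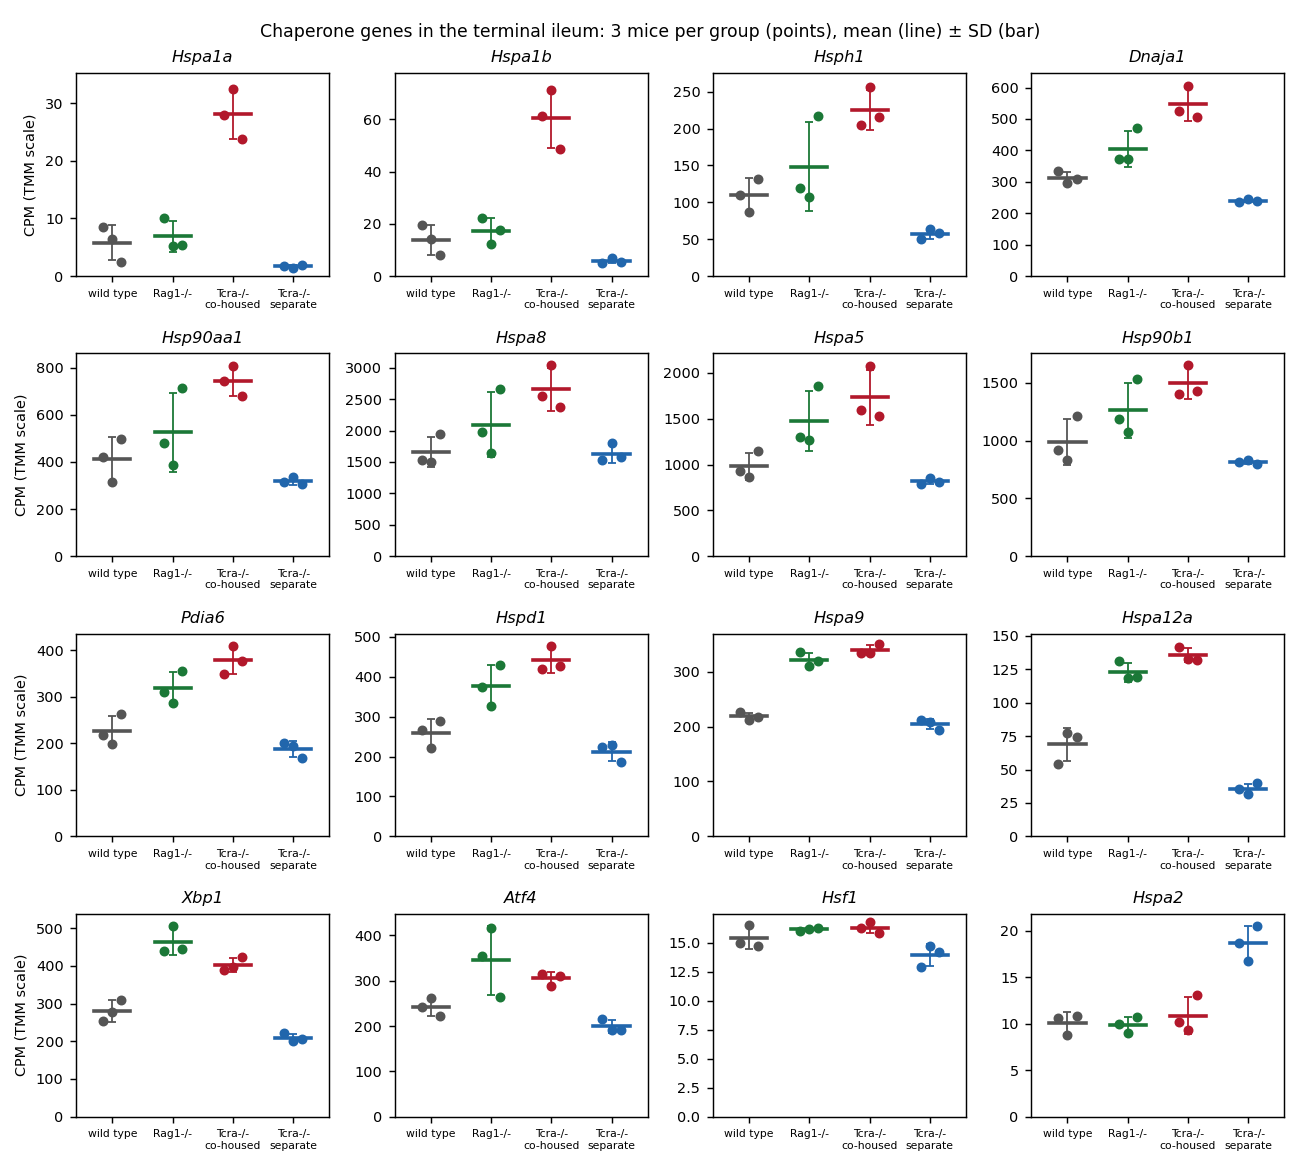
Level in CPM (vertical axis, from 0) of 16 members in each mouse (points) of the 4 groups (horizontal axis), with the group mean (line) and SD (bar). Hspa1a reaches 23.8 to 32.5 CPM in co-housed mice and at most 10.1 CPM elsewhere, Hspa9 and Hspa12a are high in both Rag1-/- and co-housed mice, and Hspa2 is highest in separately housed mice.

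Other HSP70 genes differed in direction. Hspa12a, a distant member of the family on chromosome 19 (mm9, 58870241 to 58935474), stood at 141, 133 and 132 CPM in co-housed and 35.3, 31.8 and 39.6 CPM in separately housed mice. It stood at 131, 118 and 119 CPM in Rag1-/- and 54.3, 77.7 and 74.3 CPM in wild type mice. The 3 levels, high in Rag1-/- and co-housed, middle in wild type and low in separately housed mice, did not overlap. It was called in all 4 comparisons, with log2 fold changes of 1.93 ± 0.12 between the housing groups (adjusted p = 9.74e-09), 0.84 ± 0.11 in Rag1-/- (adjusted p = 4.86e-05), 0.98 ± 0.11 in co-housed against wild type and -0.95 ± 0.12 in separately housed mice. Hspa2, which is best known from testis, went the other way. Its 18.7, 16.8 and 20.5 CPM in separately housed mice lay above all others, against 10.2, 9.28 and 13.1 CPM in co-housed and 10.6, 8.77 and 10.9 CPM in wild type mice. It was 1.72-fold lower with co-housing (log2 -0.78 ± 0.14, adjusted p = 0.00016) and higher in separately housed mice than in wild type (log2 0.89 ± 0.14, adjusted p = 0.000192). Hspa4 and Hspa14 were called higher with co-housing, at log2 0.28 and 0.50. Hspa4l and Hspa12b were called in no comparison. Hspbp1, a nucleotide exchange factor of HSP70, rose in co-housed mice (log2 0.76 ± 0.08, adjusted p = 8.34e-07) and in Rag1-/- mice (log2 0.35 ± 0.08, adjusted p = 0.00205, just over 0.01 without wild type mouse WTB6x3159 or Rag1-/- mouse RAG1x3163).

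In the ER lumen, 11 of 13 folding members were called higher in co-housed than in separately housed Tcra-/- mice and none lower (21.1% and 17.7% of all genes tested). Their median log2 fold change was 0.81. Against wild type, 7 were called higher in co-housed mice and none in separately housed mice (9.34% and 6.06% of all genes). In separately housed mice Dnajc10 was called lower. In Rag1-/- mice 4 were called higher (9.42% of all genes), Canx, Dnajb11, Pdia3 and Pdia6, with a median of 0.39 over the 13. That count was 2 without wild type mouse WTB6x3159 or WTB6x3160, 7 without wild type mouse WTB6x3167, 1 without Rag1-/- mouse RAG1x3168 and 9 with DESeq2.

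Promoters are shown for the 6 of these members that carry the ER stress response element within 250 bases before their start, because the set moved together. The element was searched as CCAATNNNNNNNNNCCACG on both strands in RefSeq promoter windows (GRCm38.p6, 250 bases before to 50 after each start), to which 68 of the 84 members matched by symbol. Capitals mark the element in the 250 bases before the start, written 5′ to 3′ on the strand of the gene.
Hspa5 (chr2:34771840-34772089, plus strand): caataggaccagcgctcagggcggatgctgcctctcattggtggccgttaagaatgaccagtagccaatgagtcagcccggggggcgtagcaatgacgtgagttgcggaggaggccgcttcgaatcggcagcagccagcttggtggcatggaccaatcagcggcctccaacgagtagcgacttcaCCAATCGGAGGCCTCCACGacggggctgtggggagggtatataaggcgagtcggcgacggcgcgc
Calr (chr8:84846932-84847181, minus strand): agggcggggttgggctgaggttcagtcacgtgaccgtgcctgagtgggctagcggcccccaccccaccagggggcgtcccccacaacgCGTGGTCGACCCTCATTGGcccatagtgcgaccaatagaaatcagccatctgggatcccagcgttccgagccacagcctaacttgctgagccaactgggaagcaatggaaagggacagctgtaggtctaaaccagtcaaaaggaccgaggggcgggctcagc
Hsp90b1 (chr10:86705445-86705694, minus strand): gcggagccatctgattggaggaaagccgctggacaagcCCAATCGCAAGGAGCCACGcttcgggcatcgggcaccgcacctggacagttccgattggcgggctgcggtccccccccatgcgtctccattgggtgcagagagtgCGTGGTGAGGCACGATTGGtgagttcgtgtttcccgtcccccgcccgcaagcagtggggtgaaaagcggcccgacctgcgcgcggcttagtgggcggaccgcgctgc
Canx (chr11:50325674-50325923, minus strand): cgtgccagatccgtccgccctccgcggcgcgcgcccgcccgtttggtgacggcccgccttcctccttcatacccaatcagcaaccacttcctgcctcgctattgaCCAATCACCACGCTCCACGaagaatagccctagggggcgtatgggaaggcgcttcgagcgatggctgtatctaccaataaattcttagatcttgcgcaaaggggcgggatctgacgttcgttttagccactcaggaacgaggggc
Pdia6 (chr12:17266339-17266588, plus strand): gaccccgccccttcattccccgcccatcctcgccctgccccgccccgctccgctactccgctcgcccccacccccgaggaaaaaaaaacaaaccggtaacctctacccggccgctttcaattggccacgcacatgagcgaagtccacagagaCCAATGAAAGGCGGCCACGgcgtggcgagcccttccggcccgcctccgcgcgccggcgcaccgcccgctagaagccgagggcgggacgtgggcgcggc
Dnajc3 (chr14:118937682-118937931, plus strand): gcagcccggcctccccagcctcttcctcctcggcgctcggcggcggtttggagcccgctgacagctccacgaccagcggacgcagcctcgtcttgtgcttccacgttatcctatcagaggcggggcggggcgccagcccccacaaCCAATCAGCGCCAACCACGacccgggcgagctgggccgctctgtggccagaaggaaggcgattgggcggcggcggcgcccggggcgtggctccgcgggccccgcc

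Hsp90b1 carried the element once on each strand, Calr on the opposite strand, and the other 4 on their own strand. In all, 6 of the 12 ER lumen members with a window held it, and none of the other members with a window did, against 37 of 27025 genes of the table (0.137%). The element was first described in promoters of such genes, so this count is a description of known sites. Between the housing groups the 6 with it had log2 fold changes of 0.44 to 1.09, and the 6 without a match in this spelling 0.22 to 0.87, ranges that overlap. The unfolded protein response element, TGACGTGG, was found in 1 member, Dnajc25 (0.714% of all genes of the table), and the C/EBP-ATF composite element, TGATGNAAT, in none (1.08% of all genes).

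Hspa5, on chromosome 2 (mm9, 34627610 to 34632049), stood at 1598, 2078 and 1529 CPM in co-housed and 791, 852 and 809 CPM in separately housed mice, 2.12-fold apart (log2 1.09 ± 0.16, adjusted p = 7.4e-05). In Rag1-/- mice it stood at 1306, 1267 and 1858 CPM and in wild type mice at 929, 869.8 and 1146 CPM. Each Rag1-/- mouse lay above each wild type mouse, with mouse RAG1x3168 far above the other 2, and the difference just missed the threshold (log2 0.59 ± 0.16, adjusted p = 0.0109). It passed with DESeq2 (adjusted p = 0.000411), without wild type mouse WTB6x3167 (0.00533) and without Rag1-/- mouse RAG1x3164 (0.00668). Hsp90b1 showed the same order, with 1496 ± 137 CPM in co-housed, 1261 ± 238 in Rag1-/-, 989.8 ± 200.5 in wild type and 814 ± 15.3 CPM in separately housed mice. Its log2 fold change was 0.88 ± 0.14 with co-housing (adjusted p = 0.000138) and 0.35 ± 0.14 in Rag1-/- mice (adjusted p = 0.0744, and 0.00580 at a value of 0.52 without wild type mouse WTB6x3167).

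Calreticulin and calnexin hold glycoproteins by their sugars while they fold. Calr rose from 675 ± 48.9 to 1145 ± 104 CPM with co-housing (log2 0.76 ± 0.11, adjusted p = 1.93e-05), and its value of 0.38 ± 0.11 in Rag1-/- mice did not pass (adjusted p = 0.0117, between 0.00233 and 0.00888 with DESeq2, with RLE factors, with no filter, or without wild type mouse WTB6x3167 or Rag1-/- mouse RAG1x3164). Canx rose in both, from 679 ± 7.85 to 1009 ± 90.6 CPM (log2 0.57 ± 0.10) and from 746 ± 93.5 to 1015 ± 117 CPM (log2 0.44 ± 0.10, adjusted p = 0.00274). Protein disulfide isomerases make and shuffle disulfide bonds. Pdia6 stood at 349.9, 410.0 and 377 CPM in co-housed, 200.1, 194 and 169 in separately housed, 311, 288 and 356 in Rag1-/- and 218, 199 and 262 CPM in wild type mice. Both stated comparisons called it, at log2 1.01 ± 0.11 and 0.49 ± 0.11. Pdia3, which works with the 2 lectins, did likewise, at log2 0.86 ± 0.08 (adjusted p = 3.69e-07) and 0.39 ± 0.08 (adjusted p = 0.00154). Without Rag1-/- mouse RAG1x3168 or wild type mouse WTB6x3159 the Rag1-/- calls of Canx, Pdia3 and Pdia6 all ended, and without wild type mouse WTB6x3160 those of Canx and Pdia6 (adjusted p 0.0105 to 0.0197). Pdia4 was 1.80-fold higher with co-housing (adjusted p = 0.00374), a call that ended without any 1 of 5 of the 6 mice, co-housed mouse TCRaCox3155 being the exception (adjusted p 0.0110 to 0.0191).

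Hspa13, an HSP70 of microsomes, was called with co-housing at log2 0.56 ± 0.12. Of the ER J-domain proteins, which steer BiP, Dnajb11 rose from 109 ± 8.03 to 201 ± 9.23 CPM with co-housing (log2 0.87 ± 0.08, adjusted p = 1.33e-07) and from 126 ± 4.88 to 175 ± 14.2 CPM in Rag1-/- mice (log2 0.48 ± 0.07, adjusted p = 0.000128). Both calls held under every alternative tried. Dnajc10, a disulfide reductase, stood at 125, 127 and 110.5 CPM in co-housed, 102, 86.4 and 104 in wild type and 77.7, 69.1 and 59.7 CPM in separately housed mice, and was called between the housing groups (log2 0.81 ± 0.10) and in separately housed mice against wild type (log2 -0.50 ± 0.10, adjusted p = 0.00133). Dnajc3, which also restrains PERK, rose by log2 0.44 ± 0.10 with co-housing (adjusted p = 0.00223, 0.0119 without co-housed mouse TCRaCox3156 and 0.0146 without mouse T4). Dnajb9 and Dnajc1 were called in no comparison, Dnajb9 with 61.8 ± 8.59 against 51.1 ± 0.438 CPM between the housing groups (adjusted p = 0.0385). Of 20 other tested genes of ER folding and degradation, 12 were called higher with co-housing and none lower (21.1% and 17.7% of all genes tested). In Rag1-/- mice 7 were called higher and 3 lower (9.42% and 11.5% of all genes). Hyou1, the HSP110 of the ER, was higher by log2 1.06 with co-housing and by 0.71 in Rag1-/- mice. Ero1l, the oxidase that recharges disulfide isomerases, was higher by 0.89 and 1.10. Derl3, which stands in the plasma cell list, fell by 3.70 on the log2 scale in Rag1-/- mice.

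The summed level of plasma cell markers did not follow the ER chaperones over the groups. The sum of 9 was 1504 to 1997 CPM in wild type, 379 to 632 in co-housed, 210.0 to 225 in separately housed and 182 to 199 CPM in Rag1-/- mice. Igj, the immunoglobulin J chain, stood at 1229, 1265 and 1722 CPM in wild type and 0.0245, 0.166 and 0.384 CPM in Rag1-/- mice, and it was called higher in co-housed (302, 420.2 and 182 CPM) than in separately housed mice (22.2, 22.3 and 16.7 CPM). Of the 9 markers 6 were called lower in Rag1-/- mice, while Fkbp11 (log2 0.83) and Prdm1 (0.40) were called higher, as they were with co-housing. Igj made up most of the marker sum in wild type mice and little of it in Rag1-/- and separately housed mice. Like sums in the latter groups thus do not show like plasma cell levels. Rag1-/- mice had the lowest sum of these markers, and ER lumen members summing to 6019 to 7939 CPM, against 4568 to 5739 CPM in wild type mice. Among the 2 Tcra-/- groups, plasma cell markers and ER members both had higher sums in the co-housed mice (7224 to 8525 against 4267 to 4392 CPM). Of the 9 plasma cell markers 7 were called higher and 1 lower with co-housing. The sum of 7 goblet cell markers, Ern2 among them, ran the other way there, 10120 to 10940 CPM in co-housed and 14670 to 15820 CPM in separately housed mice. With co-housing 4 of the 7 were called lower and 1 higher. Their sum was 9358 to 10050 CPM in Rag1-/- against 12430 to 14150 CPM in wild type mice. In that comparison Zg16 was called lower and the other 6 were not called, with a median log2 fold change of -0.18 over the 7. The sum of 8 Paneth cell markers overlapped, at 5690 to 21020 and 7650 to 16840 CPM in the co-housed and separately housed groups. That sum was higher in Rag1-/- mice, 16430 to 18540 CPM against 11150 to 16380 CPM in wild type mice, with a median log2 fold change of 0.66 over the 8. Of the Paneth cell markers Pla2g2a was called higher in both stated comparisons (log2 1.77 in Rag1-/- mice and 1.73 with co-housing), and the other 7 in neither. The part of these cell types in the result was not tested.

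**Figure D3:**
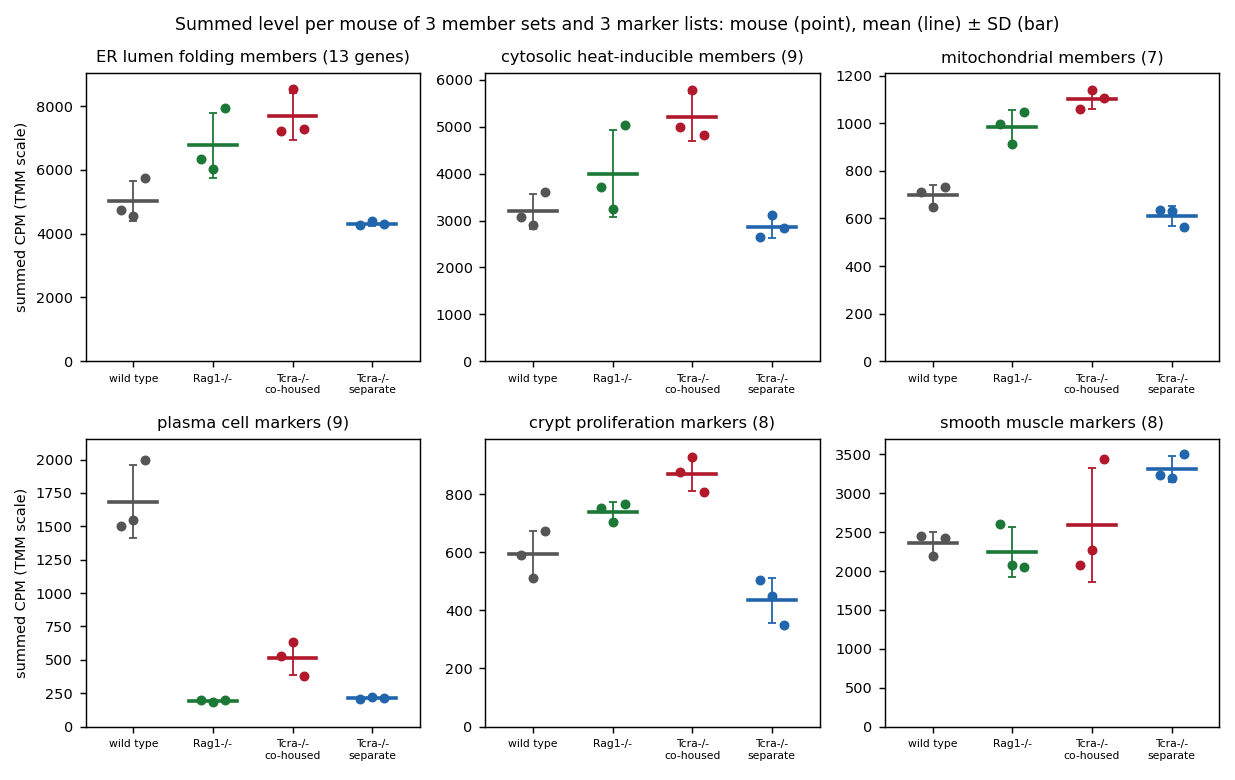
Summed level in CPM (vertical axis, from 0) of 3 member sets (top) and 3 marker lists (bottom) in each mouse (points) of the 4 groups, with mean (line) and SD (bar). The ER, cytosolic and mitochondrial sets all lie higher in co-housed than in separately housed mice, plasma cell markers are highest in wild type mice, and smooth muscle markers, 3199 to 3502 CPM in separately housed mice, overlap between the housing groups.

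Among the sensors and factors of the unfolded protein response, Xbp1 and Atf4 were called higher in both stated comparisons. Xbp1, on chromosome 11 (mm9, 5420970 to 5425875), stood at 440.4, 506 and 446 CPM in Rag1-/-, 389, 397 and 422 in co-housed, 253, 276 and 311 in wild type and 221, 199 and 206 CPM in separately housed mice. The 4 ranges did not overlap. The log2 fold change was 0.95 ± 0.08 between the housing groups (adjusted p = 1.82e-07), 0.73 ± 0.08 in Rag1-/- (adjusted p = 5.84e-06), 0.52 ± 0.08 in co-housed and -0.42 ± 0.08 in separately housed mice against wild type (adjusted p = 0.00159, just over 0.01 without wild type mouse WTB6x3167 or mouse T3). Counts per gene do not show how much of the transcript was spliced. Atf4 stood at 356, 416 and 265 CPM in Rag1-/- and 243, 261 and 221 CPM in wild type mice (log2 0.52 ± 0.13, adjusted p = 0.00591). Leaving out any mouse but Rag1-/- mouse RAG1x3168, which was the lowest of its group, ended that call (adjusted p 0.0107 to 0.0289). With co-housing Atf4 was higher by log2 0.61 ± 0.13 (adjusted p = 0.000947).

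Of the sensors, Ern2 was called lower with co-housing and Ern1 in no comparison. Ern2, the IRE1 form of mucosal epithelium and goblet cells, stood at 24.9, 28.1 and 25.4 CPM in separately housed and 17.1, 17.9 and 18.9 CPM in co-housed mice, 1.45-fold lower with co-housing (log2 -0.54 ± 0.09, adjusted p = 6.61e-05), beside the lower sum of goblet cell markers given above. Ern1, the general form, had 19.6 ± 1.04 CPM in co-housed and 20.8 ± 1.26 CPM in separately housed mice. Atf6 was called in Rag1-/- mice (102 ± 1.84 against 85.7 ± 7.06 CPM, log2 0.24 ± 0.07, adjusted p = 0.00869), a call that ended without 5 of the 6 mice in turn (adjusted p 0.0211 to 0.0459). Separately housed mice, at 102 ± 2.12 CPM, did not overlap with wild type mice either and just missed the threshold (adjusted p = 0.0104). Ddit3 (CHOP), a factor of prolonged ER stress, was called in no comparison, at 12.04 ± 1.76 CPM in Rag1-/-, 14.8 ± 1.51 in wild type, 14.5 ± 1.61 in co-housed and 16.3 ± 0.894 CPM in separately housed mice. Of 15 other sensors and targets of the PERK arm, 6 were called higher and 1 lower in Rag1-/- mice (9.42% and 11.5% of all genes tested). With co-housing 7 were called higher and 1 lower (21.1% and 17.7% of all genes). Asns, asparagine synthetase and a target of ATF4, was higher by log2 1.65 in Rag1-/- mice and by 1.74 with co-housing. Psat1, of serine synthesis, was higher by 0.95 and 1.71, the first of these calls ending without wild type mouse WTB6x3159 or WTB6x3160 or Rag1-/- mouse RAG1x3163 or RAG1x3164 (adjusted p 0.0121 to 0.0191). The 6 calls in Rag1-/- mice became 3 without wild type mouse WTB6x3159 and 2 without wild type mouse WTB6x3160. Trib3 was the gene called lower in both, at log2 -1.54 in Rag1-/- mice and -2.17 with co-housing. The call in Rag1-/- mice ended without 5 of the 6 mice in turn, and with co-housing 2 genes were called lower without mouse T2.

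All 7 members listed here as mitochondrial were called higher with co-housing (21.1% of all genes tested), with a median log2 fold change of 0.73. In Rag1-/- mice 5 of the 7 were called higher (9.42% of all genes), with a median of 0.44. The 5 became 3 without wild type mouse WTB6x3160. Against wild type 6 of the 7 were called higher in co-housed mice (9.34% of all genes) and none in separately housed mice. The list, Hspa9, Hspd1, Hspe1, Dnaja3, Dnajc11, Dnajc15 and Dnajc19, was chosen by hand. It leaves out Dnajc28, called lower with co-housing, and Dnajc30, called in no comparison. Hspa9 (mortalin), the HSP70 of the mitochondrial matrix, stood at 335, 309.9 and 319 CPM in Rag1-/- and 226, 212 and 218 CPM in wild type mice (log2 0.56 ± 0.06, adjusted p = 5.63e-06). It stood at 334, 334 and 349.7 CPM in co-housed and 211, 209 and 194 CPM in separately housed mice (log2 0.73 ± 0.06, adjusted p = 1.54e-07). Rag1-/- and co-housed mice shared the high range and the other 6 the low one, and both calls held under every alternative.

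The chaperonin genes lie head to head on chromosome 1 (mm9, Hspd1 from 55134678 to 55144776 on the minus strand and Hspe1 from 55144992 to 55148161 on the plus strand). Hspd1 stood at 418, 477 and 427 CPM in co-housed, 223, 228 and 185 in separately housed, 374, 328 and 429.7 in Rag1-/- and 266, 221 and 289 CPM in wild type mice. Hspe1 stood at 136, 148 and 154, 75.9, 64.5 and 61.9, 113, 105 and 135 and 86.3, 79.8 and 94.3 CPM in the same order of groups. Within both stated comparisons the groups did not overlap for either gene. Their log2 fold changes were 1.05 ± 0.12 and 1.11 ± 0.10 with co-housing and 0.54 ± 0.12 and 0.44 ± 0.10 in Rag1-/- mice (adjusted p = 0.00204 and 0.00293). The Rag1-/- calls of both ended without wild type mouse WTB6x3160 or Rag1-/- mouse RAG1x3168, and that of Hspe1 also without wild type mouse WTB6x3159 (adjusted p 0.0106 to 0.0191).

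The heat shock element, searched as GAANNTTCNNGAA on both strands, is shown for this pair because 1 element serves both promoter windows (RefSeq, GRCm38.p6, chr1:55088053-55088082, plus strand). The 18 capitals mark 2 overlapping matches, which end 72 bases before the start of Hspe1.
Hspd1 and Hspe1: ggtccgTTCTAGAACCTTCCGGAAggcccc
The element was also found in windows of Dnajb6, which was called in no comparison, and of Hsph1, where it lies after the start, so 4 of 68 members held it (5.88%) against 0.662% of all genes of the table. Of the 6 cytosolic heat-inducible members with a window Hsph1 alone held it in this spelling. No member held matches to 2 of the 4 elements searched.

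Dnaja3, the matrix J-domain protein, rose by log2 0.50 ± 0.07 in Rag1-/- mice (adjusted p = 3.99e-05) and 0.44 ± 0.07 with co-housing. Dnajc11, of the cristae junctions, rose by 0.39 ± 0.08 and 0.44 ± 0.08. Dnajc15 and Dnajc19, linked to the import motor, were called with co-housing (log2 0.80 and 0.34, the call of Dnajc19 ending without mouse T3 at an adjusted p of 0.0154) and not in Rag1-/- mice. Of 10 other mitochondrial chaperones and proteases, 5 were called higher in each stated comparison (9.42% of all genes in Rag1-/- mice and 21.1% with co-housing). Among them were Trap1, the mitochondrial HSP90 (log2 0.36 in Rag1-/- and 0.60 with co-housing), and Grpel1, the exchange factor of Hspa9 (0.37 and 0.51). Its relative Grpel2 fell by 0.66 on the log2 scale with co-housing. The 5 calls in Rag1-/- mice became 1 to 3 when any 1 mouse was left out. Of 23 other cytosolic chaperones and cochaperones, 15 were called higher with co-housing and 7 in Rag1-/- mice (21.1% and 9.42% of all genes). None was called lower in either. Those called higher in both included the chaperonin subunit Cct3 (log2 0.70 and 0.40) and the HSP90 partner Ptges3 (0.76 and 0.37). The 7 in Rag1-/- mice became 2 without wild type mouse WTB6x3159 or WTB6x3160 or Rag1-/- mouse RAG1x3163, and 3 without Rag1-/- mouse RAG1x3168.

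The Rag1-/- calls of Trap1, Grpel1 and Cct3 were among those that ended when 1 mouse was left out.

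Among J-domain proteins outside these sets the directions were mixed. Dnajb14, an ER membrane protein, stood at 12.5, 11.99 and 12.4 CPM in Rag1-/- and 8.23, 7.75 and 7.69 CPM in wild type mice (log2 0.64 ± 0.11, adjusted p = 0.000415) and rose by 0.65 ± 0.12 with co-housing (adjusted p = 0.000208). Its relative Dnajb12 went the other way, 31.3, 28.5 and 27.7 CPM in co-housed against 41.7, 43.0 and 49.1 CPM in separately housed mice (log2 -0.61 ± 0.09, adjusted p = 2.24e-05). Dnajc16 was called higher in Rag1-/- mice (log2 0.54 ± 0.10, adjusted p = 0.000484). Dnaja2 and Dnajc22 were called there at log2 0.26 and 0.25, and Dnajb4 lower at -0.37; each of these 3 calls ended without at least 4 of the 6 mice in turn (adjusted p 0.0104 to 0.0372). Dnajc9, which handles histones, stood at 24.5, 24.2 and 24.3 CPM in co-housed, 20.9, 22.5 and 21.0 in wild type, 21.1, 19.4 and 18.5 in Rag1-/- and 15.4, 16.3 and 14.1 CPM in separately housed mice, higher by log2 0.68 ± 0.08 with co-housing (adjusted p = 6.92e-06) beside the crypt proliferation markers above. Dnajc5, on secretory vesicles, stood at 118, 121 and 130.2 CPM in separately housed and 90.2, 83.8 and 88.6 CPM in co-housed mice (log2 -0.49 ± 0.07, adjusted p = 2.12e-05). Dnajc2 and Dnajc21 were called higher with co-housing at log2 0.66 and 0.43. Dnajc7 and Dnajc8 were called at 0.23 and 0.28, calls that each ended without 5 of the 6 mice in turn (adjusted p 0.0102 to 0.0545). Dnajc28 fell by 1.03 on the log2 scale with co-housing, and Dnajc13, on endosomes, by 0.28, the latter call ending without 4 of the 6 mice in turn (adjusted p 0.0157 to 0.0221). Dnajb7 had the largest fall, 2.31, but at 0.200, 0.114 and 0.124 CPM against 0.636, 0.932 and 0.613 CPM it rests on 17 reads in the 3 co-housed and 97 in the 3 separately housed mice. Hspbap1, an HSPB1-associated protein, fell by 0.50 with co-housing (adjusted p = 0.00206, 0.0108 without mouse T3).

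The 6 tested genes listed by symbol as small heat shock proteins were Hspb1, Hspb2, Hspb6, Hspb7, Hspb8 and Hspb11. Of these, Hspb8 was called lower with co-housing (15.4, 18.5 and 19.7 against 23.9, 23.0 and 28.1 CPM, log2 -0.48 ± 0.11, adjusted p = 0.00124). None was called in Rag1-/- mice, where the log2 values lay between -0.22 and 0.06. Against wild type, Hspb7 and Hspb8 were called higher in separately housed mice, with Hspb7 at 7.11, 7.66 and 8.03 against 5.31, 4.12 and 4.63 CPM (log2 0.70 ± 0.17, adjusted p = 0.00596) and Hspb8 at log2 0.53 ± 0.11 (adjusted p = 0.00181). The call of Hspb7 ended without 5 of the 6 mice in turn (adjusted p 0.0118 to 0.0306) and that of Hspb8 without wild type mouse WTB6x3159 or WTB6x3160 or mouse T4 (adjusted p 0.0102 to 0.0139). Between the housing groups the value of Hspb7 was -0.45 (adjusted p = 0.0332), and -0.68 without co-housed mouse TCRaCox3157 (adjusted p = 0.00140). Hspb6 was called in no comparison, with 21.3 to 23.97 CPM in separately housed and 13.2 to 21.8 CPM in co-housed mice. Hspb6 and Hspb7 are known from muscle. The sum of 8 smooth muscle markers was 3199 to 3502 CPM in separately housed, 2188 to 2452 in wild type, 2051 to 2610 in Rag1-/- and 2073 to 3435 CPM in co-housed mice, with 1 called lower with co-housing. Co-housed mouse TCRaCox3157, the highest of its group in smooth muscle markers, was also the highest of its group in Hspb6, Hspb7, Hspb8 and Hspa2. The part of muscle in the result was not tested.

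The heat shock factors themselves were called in no comparison. Hsf1 stood at 16.3, 16.7 and 15.9 CPM in co-housed and 12.9, 14.7 and 14.2 CPM in separately housed mice, groups that did not overlap (adjusted p = 0.0421), and at 16.2 ± 0.147 CPM in Rag1-/- and 14.9, 16.5 and 14.7 CPM in wild type mice. Hsf2 had 5.63 ± 0.446 and 6.03 ± 0.786 CPM in the 2 Tcra-/- groups. HSF1 is activated as a protein, which transcript counts do not show.

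In both stated comparisons 16 members were called, all higher: 80.0% of the 20 called in Rag1-/- mice and 33.3% of the 48 called between the housing groups. Of all genes tested 2140 were called in both in the same direction, 64.6% of those called in Rag1-/- mice and 34.8% of those called between the housing groups. The 16 were Atf4, Xbp1, Canx, Pdia3, Pdia6, Dnajb11, Dnajb14, Hspa9, Hspd1, Hspe1, Dnaja3, Dnajc11, Dnaja1, Dnaja2, Hspbp1 and Hspa12a. Xbp1, Dnajb11, Dnajb14, Hspa9, Dnaja3 and Hspa12a were called in both under every alternative tried. The co-housing call of Dnaja2, at log2 0.24, ended without 4 of the 6 mice in turn (adjusted p 0.0127 to 0.02095). The difference between the 2 fold changes was tested directly, and 10 members passed, against 12% of all genes tested. It was largest for Hspa1a, with log2 fold changes of 0.24 in Rag1-/- mice and 4.04 with co-housing, a difference of -3.80 ± 0.59 (SE, adjusted p = 0.00142). For Hspa1b it was -3.08 ± 0.46 (adjusted p = 0.00134) and for Hspa12a -1.09 ± 0.16 (adjusted p = 0.000189). Dnaja1, Dnajc9, Hspe1 and Pdia3 also had the smaller value in Rag1-/- mice, while Atf6, Dnajc5 and Dnajc22 had the larger. The count of 10 became 6 without Rag1-/- mouse RAG1x3164 or separately housed mouse T3 or T4, and the differences of Hspa1a, Hspa1b, Hspa12a, Dnaja1 and Dnajc9 passed under every alternative. No such difference passed for Hspa5 (log2 -0.50, adjusted p = 0.136), Xbp1 (-0.22, adjusted p = 0.217) or Hspa9 (-0.17, adjusted p = 0.199).

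**Figure D4:**
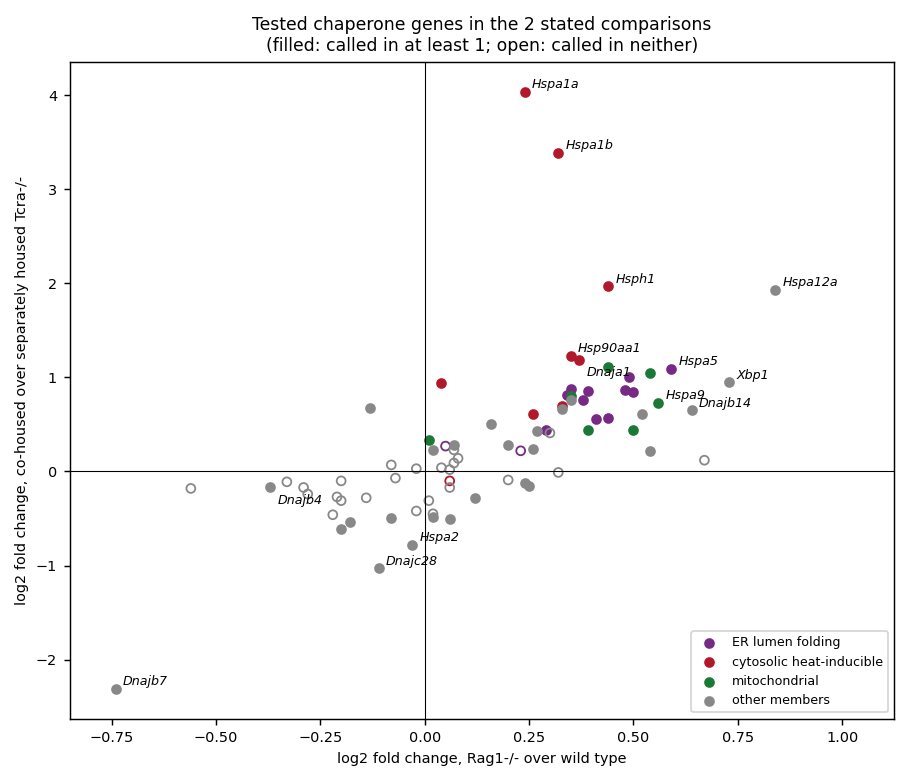
Log2 fold change in Rag1-/- over wild type mice (horizontal axis) and in co-housed over separately housed Tcra-/- mice (vertical axis) of the 80 tested members, 1 point each, coloured by set; filled points were called in at least 1 of the 2. Hspa1a and Hspa1b lie highest, at 0.24 and 0.32 on the horizontal axis. The members of the ER and mitochondrial sets lie in the upper right, and Hspa12a is farthest right at 0.84.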

How the data were processed

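RNA of the terminal ileum of 12 mice was sequenced from Illumina stranded mRNA libraries, per the labels' protocols. The deposited values are read counts per gene, 1 column per mouse, made by the authors with bcl2fastq, TopHat2 2.0.11 and Bowtie2 2.2.2.0 on mm9 and featureCounts of Subread 1.4.5-p1, per the submitters' processing notes. No source used here states the annotation, whether strand was used, or how reads that fit several places were counted. Gene positions and exon lengths are those the deposited count table gives.

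Counts were analysed in R 4.3.3 with edgeR 4.0.16: TMM scaling, its expression filter over the 4 groups (15866 genes kept) and robust quasi-likelihood tests in 1 fit of all 12 libraries (8 residual degrees of freedom). A call is a Benjamini-Hochberg adjusted p under 0.01, the level the submitters state. CPM and RPKM were computed from the counts and TMM factors, which ran from 0.926 to 1.07. The script was tested on simulated counts. Alternatives were RLE factors, library size alone, DESeq2 1.42.0, no filter, CPM above 1 in 3 libraries, the 6 libraries of a comparison alone, and each mouse left out. The members, lists, tests and alternatives were chosen with earlier results of these data known. Genes were named by a fixed rule: 30 members whatever their values, up to 8 called members per direction and comparison, and those called in both stated comparisons or in their difference. Other members given with values were chosen after their values were seen. Promoter windows are RefSeq's on GRCm38.p6, and 16 members had none.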

Additional observations from a re-analysis of the deposited data

Results flagged for a closer look

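For 10 members the fold change in Rag1-/- against wild type mice differed from that in co-housed against separately housed Tcra-/- mice, by edgeR's quasi-likelihood test of the difference itself (Benjamini-Hochberg adjusted p under 0.01 over all genes tested). These 10 of the 80 tested members lie near the share of all genes tested, 12%, so the count is no result about the members. The difference, Rag1-/- minus co-housing on the log2 scale, was negative for the stress-inducible HSP70 genes Hspa1a (-3.80) and Hspa1b (-3.08), for Hspa12a (-1.09) and for the HSP70 partner Dnaja1 (-0.81). It was also negative for the histone-handling Dnajc9 (-0.80), the chaperonin gene Hspe1 (-0.68) and the disulfide isomerase Pdia3 (-0.47). It was positive for Dnajc5 (0.41), Dnajc22 (0.40) and the ER stress sensor Atf6 (0.36). The differences of Hspa1a, Hspa1b, Hspa12a, Dnaja1 and Dnajc9 passed under each alternative tried. That of Hspe1 missed the threshold without separately housed mouse T4 (adjusted p = 0.01004), and those of Pdia3, Dnajc5, Dnajc22 and Atf6 missed it under several alternatives, with adjusted p up to 0.0264, 0.0227, 0.0182 and 0.0345. Hspa1a and Hspa1b cannot be told apart by reads that fit both.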

How the results depend on the processing

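Of 112 member calls, 68 held under every alternative, 44 were lost under at least 1, 40 of them when a mouse was left out, and none reversed. Between the housing groups the counts, 39 higher and 9 lower, stayed within 1.5 times throughout (37 of 48 calls held), whereas in Rag1-/- mice 7 of 20 held. There the 19 higher calls became 7 with library size alone (1494 became 713 over all genes tested) and 10 to 18 when a mouse was left out. The 1 lower call became 6 with library size alone (1820 became 3218 over all genes tested), 2 with DESeq2, 2 with the CPM filter and 0 to 1 without a mouse. In separately housed mice against wild type, the 5 higher calls became 1 to 3 and the 5 lower calls 3 to 5 when a mouse was left out, the latter 11 with DESeq2. In co-housed mice against wild type, the 2 lower calls became 5 with library size alone (1458 became 2449 over all genes tested). They became 1 with the CPM filter and 1 to 2 without a mouse. The 10 differences between the stated comparisons became 19 with DESeq2 and 6 to 12 without a mouse. Hspa1a in Rag1-/- mice, 0.24, ranged from -0.14 to 0.62 without a mouse, reversing to -0.13 without wild type mouse WTB6x3167 and to -0.14 without Rag1-/- mouse RAG1x3163. Leaving out a mouse reduces the samples; for the other settings the cause was not tested. No paired analysis was made because the labels give no pairing and no cage per mouse. Ear tags do not show which mice shared a cage. Of the 84 members with reads, 4 had too few to be tested.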
